A study of Homo sapiens with 12 samples.

Results

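The plasminogen activator genes were examined by name in liver cancer cells that differed in the receptor tyrosine kinase Axl and in resistance to Regorafenib (Rego). Of 7 genes looked for by gene name, namely PLAU, PLAT, PLAUR, SERPINE2, SERPINB2, SERPINB7 and SERPINB8, 5 were listed among the 15601 genes of the table over all 12 libraries. SERPINB2 and SERPINB7 were in none of the 8 tables and were not analysed here. SERPINB8 was also missing from the table that pairs the Rego-resistant groups, whereas PLAU, PLAUR, PLAT and SERPINE2 were listed in all 6 tables of a pair.

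SNU449 is an established human hepatocellular carcinoma line with mesenchymal-like features, and SNU449-Axl- is its derivative in which Axl was disrupted with CRISPR/Cas9. Each was used as the control, that is naive, cells and as Rego-resistant cells, which had been grown in Rego raised stepwise to 2 x IC50 and were kept under the drug. The 4 groups of 3 libraries each are therefore SNU449 control, SNU449 Rego, SNU449-Axl- control and SNU449-Axl- Rego. The 3 libraries within a group are technical replicates by the submitters' description. Each group is thus 1 cell population, and p-values measure only the spread between libraries. A difference between groups cannot be told apart from a difference that arose while a population was derived or selected.

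Plasminogen is cut to the protease plasmin by either of the serine proteases urokinase (uPA, the product of PLAU) and tissue-type plasminogen activator (tPA, the product of PLAT). Plasmin dissolves fibrin and degrades pericellular matrix, and in tumor cells the system is best known for its part in invasion. PLAUR encodes the urokinase receptor uPAR, a GPI-anchored protein that holds uPA at the cell surface, and serpins are suicide inhibitors that trap the activators. SERPINE2 encodes protease nexin-1, an extracellular inhibitor of thrombin, uPA and tPA, and SERPINB8 encodes an intracellular serpin known to inhibit furin.

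Sequences upstream of the RefSeq start sites are shown for 4 of the genes, so that their base composition and motifs can be compared with the levels that follow. Capitals mark AP-1 sites (TGANTCA, which reads the same on both strands), GC boxes (GGGCGG or CCGCCC) and TATA boxes (TATAAA or TTTATA), all searched in the 250 bases before the start on both strands. Bases that GENCODE counts as a UTR of any transcript are left out, and of PLAUR, whose whole window lies in the first exon of a longer transcript, 30 bases around the AP-1 match are shown. All are GRCh38.p14 and read 5′ to 3′ along the gene.
PLAU, chr10:73910882-73911103 (+ strand): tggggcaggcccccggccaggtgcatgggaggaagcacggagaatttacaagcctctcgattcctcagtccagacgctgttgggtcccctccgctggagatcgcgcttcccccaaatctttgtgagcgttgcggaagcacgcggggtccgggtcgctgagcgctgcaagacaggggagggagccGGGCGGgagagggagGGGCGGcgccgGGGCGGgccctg
PLAUR, chr19:43670337-43670366 (- strand): tcacaactccaTGAGTCAgggccgagccag
SERPINE2, chr2:224038805-224038890 (- strand): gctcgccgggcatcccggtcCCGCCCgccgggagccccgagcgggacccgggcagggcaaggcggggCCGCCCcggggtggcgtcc
SERPINB8, chr18:63969831-63970028 (+ strand): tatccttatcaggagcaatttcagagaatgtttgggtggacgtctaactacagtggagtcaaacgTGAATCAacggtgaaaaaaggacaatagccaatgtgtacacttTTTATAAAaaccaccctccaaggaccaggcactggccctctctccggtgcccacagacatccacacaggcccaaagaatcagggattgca
The windows of PLAU and SERPINE2 were rich in G and C, with 68.8% and 75.2% against a median of 58.0% over 34943 windows of the same length. PLAU held 3 GC boxes and SERPINE2 held 2, at -230 and -183, a motif that 42.5% of all windows contain. An AP-1 match stood at -186 in PLAUR and at -185 and -28 in SERPINB8, and 6.59% of all windows hold at least 1 such match. The TATA letters of SERPINB8, which start at -142 on one strand and at -140 on the other and overlap, lie far from the start, and 10.8% of windows hold these letters somewhere. The window of SERPINE2 belongs to a start 646 bases from that of its canonical GENCODE transcript. A match is a string of letters and no sign of binding, and no sequence is given for PLAT.

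The values of single libraries are whole-number scores on a linear scale that the authors computed from variance-stabilized counts after removing the effect of the preparation date. They never fall below 12, so fold changes of weakly expressed genes are understated. The removal was made over all 12 libraries, so a library left out below had already shaped the scores of the others. Such omissions are therefore incomplete, and calls kept or lost under them are only a rough guide. Changes are given as log2 fold changes with their standard error (SE) from 1 limma fit to log2(value + 1) over all 12 libraries, in which the replicate number was a block, and a gene was called when its Benjamini-Hochberg adjusted p over 15601 genes was under 0.05. Beside them stand the authors' mean normalized counts, solved for each group from the means of the pair tables, which carry no SD. Scores and counts can differ for a strongly expressed gene as well. For SERPINE2 the scores gave 1.86-fold and the counts 3.31-fold lower levels with Rego resistance in SNU449. Upon Axl loss they gave 4.34-fold and 8.05-fold higher levels in Rego-resistant cells, but 2.77-fold and 2.74-fold in control cells.

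As a check of the labels, AXL had library values of 727, 941 and 715 in SNU449 control and 1237, 815 and 1271 in SNU449 Rego, against 33 to 53 in all 6 SNU449-Axl- libraries. Its log2 fold change upon Axl loss was -4.29 in control cells (adjusted p = 2.16e-09) and -4.52 in Rego-resistant cells (adjusted p = 1.27e-09). All 7 mesenchymal markers searched were listed, from VIM with group means of 15940 to 21480 down to SNAI2 with 40.7 to 72. FN1 had group means of 466.3 to 2915. It was called lower upon Rego resistance in SNU449 and Axl loss in control cells, and higher upon Rego resistance in SNU449-Axl- and Axl loss in Rego-resistant cells. SNAI2 went the other way upon Rego resistance in SNU449-Axl- (log2 fold change -0.83, adjusted p = 0.0483). No other mesenchymal marker was called in these comparisons. Of 13 hepatocyte markers 5 were listed and ALB, TTR, APOB and HNF4A were not, and of 6 epithelial markers KRT8 and KRT18 were listed and CDH1 and EPCAM were not. KRT8 was called higher upon Axl loss in control cells (0.79, adjusted p = 0.0332) and in Rego-resistant cells (1.58, adjusted p = 0.000248), and KRT18 was called nowhere. Of 9 markers of leukocytes, endothelium and fibroblasts, 4 were listed, with group means of at most 50.0. When the scores were centred on the 32 spike-in RNAs, this shifted the median gene by 0.0477 and 0.138 in the Rego comparisons of SNU449 and SNU449-Axl-, and by 0.203 and 0.292 in the Axl comparisons of control and Rego-resistant cells. It shifted the difference of the Rego effects by 0.0899.

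**Figure D1:**
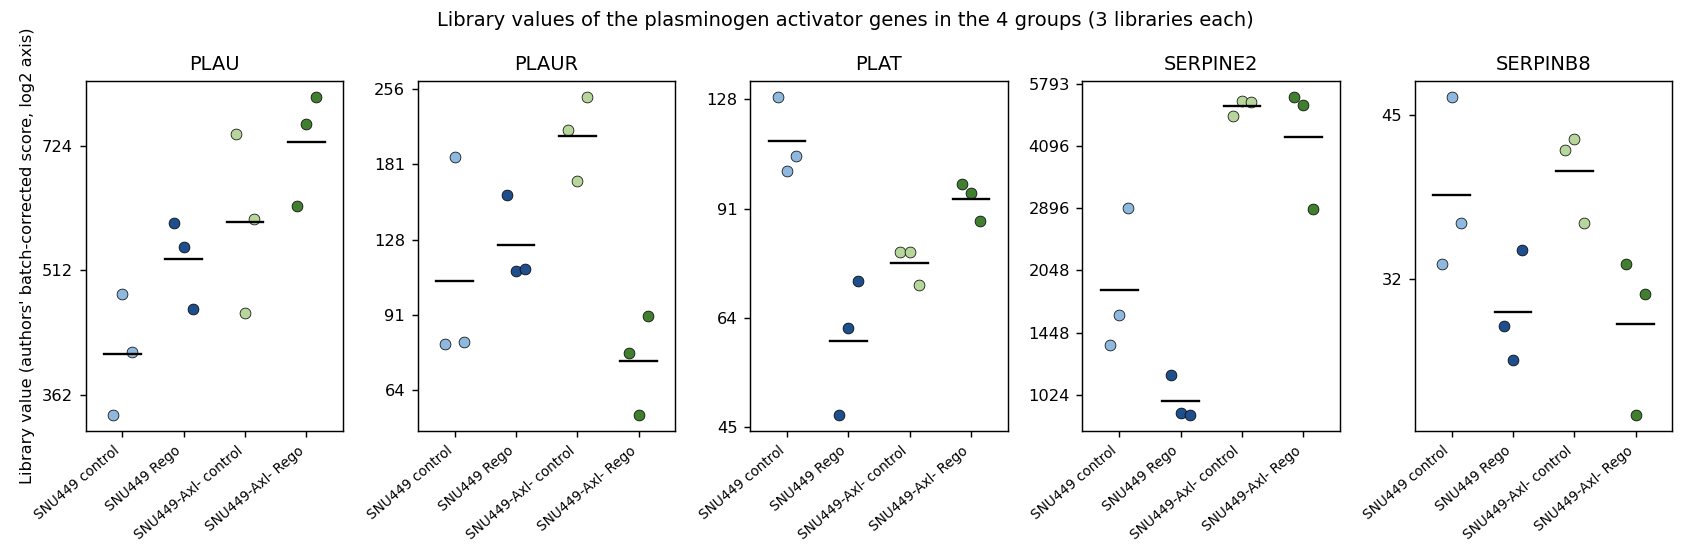
Library values (authors' batch-corrected score, log2 axis, a separate scale per gene) of the 5 listed genes in the 4 groups. Points are the 3 libraries of a group and bars the group mean on the log2 scale, which shows SERPINE2 at 2886 or above in all 6 SNU449-Axl- libraries, a level that 1 SNU449 control library (2905) also reached, and PLAUR lowest in SNU449-Axl- Rego.

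Rego resistance in the Axl-proficient background was compared first, which asks how the plasminogen activator genes differ between resistant and naive SNU449 cells. PLAT and SERPINE2 were lower in Rego-resistant SNU449 cells, 1 activator and 1 inhibitor of activators, while PLAU, PLAUR and SERPINB8 did not pass the test. Of the 5 genes 2 were called, against 7.81% of all genes. The libraries of the groups did not overlap for the same 2 genes, as was the case for 27.9% of all genes. These genes and the lists used below were chosen with earlier results of these data known. Counts of called genes beside the share of all genes are therefore no test of the set.

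PLAT had values of 129, 102 and 107 in SNU449 control and 47, 62 and 72 in SNU449 Rego. Every resistant library lay below every control library. The log2 fold change was -0.90 (SE 0.201, adjusted p = 0.00815), and the mean normalized counts of 88.7 and 25.9 differ 3.42-fold. Without control replicate 1 or without resistant replicate 1 the adjusted p was 0.0536 and 0.0694, respectively. In the table made from this pair alone the log2 fold change of -0.69 had an adjusted p of 0.0571.

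SERPINE2 had values of 1348, 1595 and 2905 in SNU449 control and 1145, 928 and 914 in SNU449 Rego. Its control libraries were widely spread, with replicate 3 near the lowest SNU449-Axl- library, whereas the resistant libraries lay close together. The log2 fold change was -0.89 (SE 0.270, adjusted p = 0.0492), just past the threshold, and the mean normalized counts were 2011 and 608.4. This call was lost when any 1 library other than control replicate 1 was left out (adjusted p between 0.0685 and 0.286), and without control replicate 3 the log2 fold change was -0.46.

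PLAU had values of 342, 480 and 408 in SNU449 control and 585, 547 and 460 in SNU449 Rego. The groups overlapped and the log2 fold change of 0.38 (95% confidence interval -0.08 to 0.83, adjusted p = 0.339) did not pass the test. PLAUR had 79, 187 and 80 in the control cells and 157, 111 and 112 in the resistant cells, so that control replicate 2 alone exceeded all resistant libraries. Its log2 fold change was 0.24 (95% confidence interval -0.38 to 0.85, adjusted p = 0.702). SERPINB8 had 33, 47 and 36 against 29, 27 and 34, with a log2 fold change of -0.35 (adjusted p = 0.336). These intervals leave room for changes of either sign.

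In the Axl-deficient background, the gene that differed upon Rego resistance was the receptor. PLAUR had values of 212, 168 and 247 in SNU449-Axl- control and 76, 57 and 90 in SNU449-Axl- Rego. All resistant libraries lay below all control libraries. The log2 fold change was -1.49 (SE 0.292, adjusted p = 0.00625), and the mean normalized counts of 205.9 and 64.2 differ 3.21-fold. PLAUR was the 1 gene of the 5 called, against 4.35% of all genes. Its call was lost without resistant replicate 2, the lowest in these scores (log2 fold change -1.25, adjusted p = 0.0834). That replicate was not low in the scores made from this pair alone, at 316, 316 and 309 in the control and 157, 157 and 160 in the resistant cells. The spread between these libraries thus depends on which libraries were corrected together.

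The other genes did not pass the test in SNU449-Axl- cells. PLAT had values of 79, 79 and 71 in the control cells and 98, 95 and 87 in the resistant cells, narrow groups that did not overlap, with a log2 fold change of 0.29 (95% confidence interval -0.13 to 0.71, adjusted p = 0.483). PLAU had 748, 455 and 590 against 613, 769 and 830, with a log2 fold change of 0.32 (adjusted p = 0.466). SERPINE2 had 4821, 5261 and 5215 against 5375, 5137 and 2886, with 1 low resistant library, and its log2 fold change of -0.24 (adjusted p = 0.690) turned to 0.14 without resistant replicate 3. SERPINB8 had 42, 43 and 36 against 33, 24 and 31, groups that did not overlap, with a log2 fold change of -0.45 (adjusted p = 0.215). Libraries without overlap were thus seen in 3 of the 5 genes, against 29.1% of all genes.

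Axl loss was compared next, which asks how the genes differ between SNU449-Axl- and SNU449 cells. SERPINE2 was higher in SNU449-Axl- cells in both states, and it was the 1 gene of the 5 called in each comparison, against 7.45% of all genes in control cells and 4.37% in Rego-resistant cells. The lowest SNU449-Axl- control library, at 4821, lay above the highest SNU449 control library, at 2905, and the lowest SNU449-Axl- Rego library, at 2886, above the highest SNU449 Rego library, at 1145. Upon Axl loss SERPINE2 rose by 1.47 on the log2 scale in control cells (SE 0.270, adjusted p = 0.00239) and by 2.12 in Rego-resistant cells (SE 0.270, adjusted p = 0.000117). The mean normalized counts were 2011 and 5508 in control cells, a 2.74-fold difference, and 608.4 and 4895 in Rego-resistant cells, an 8.05-fold difference. Both calls were kept under every alternative run, with log2 fold changes of 1.17 to 1.91 and 1.91 to 2.5 when single libraries were left out. The Rego effects of the backgrounds on SERPINE2 differed by 0.65 (SE 0.381, adjusted p = 0.379), which did not pass the test. By the mean normalized counts, which carry no SD, SERPINE2 was 3.31-fold lower with resistance in SNU449 and 1.13-fold lower in SNU449-Axl-.

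PLAUR was on opposite sides in the states. In control cells the SNU449-Axl- libraries reached 168 to 247 against 79, 187 and 80 in SNU449, with a log2 fold change of 0.96 (SE 0.292, adjusted p = 0.0538) that just missed the threshold. SNU449 control replicate 2 was the library that overlapped, and without it the log2 fold change was 1.5 (adjusted p = 0.000957). In Rego-resistant cells the SNU449-Axl- libraries lay at 57 to 90, below the 111 to 157 of SNU449, with a log2 fold change of -0.77 (SE 0.292, adjusted p = 0.158). Without the block the difference in control cells was called (adjusted p = 0.0326), but that fit ignores the effect already removed along the replicate number. Its p-values are therefore too small.

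PLAT showed the opposite order, lower upon Axl loss in control cells (log2 fold change -0.55, SE 0.201, adjusted p = 0.107) and higher in Rego-resistant cells (log2 fold change 0.64, SE 0.201, adjusted p = 0.0814), with neither difference past the threshold. Its libraries did not overlap in either state, with 71 to 79 below 102 to 129 in control cells and 87 to 98 above 47 to 72 in Rego-resistant cells. Without the replicate block both differences passed (adjusted p = 0.0352 and 0.0223), in a fit whose p-values are too small for the reason given for PLAUR.

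PLAU was higher in SNU449-Axl- than in SNU449 cells in both states, by 0.53 in control cells (SE 0.217, adjusted p = 0.159) and by 0.47 in Rego-resistant cells (SE 0.217, adjusted p = 0.258), without passing the test. The groups overlapped in control cells, at 455 in SNU449-Axl- and 480 in SNU449, and were narrowly apart in Rego-resistant cells, at 613 and 585. SERPINB8 differed by 0.07 in control cells (95% confidence interval -0.34 to 0.49) and by -0.04 in Rego-resistant cells (95% confidence interval -0.45 to 0.38). Libraries did not overlap in 2 of the 5 genes in control cells and in 4 in Rego-resistant cells, against 27.9% and 28% of all genes.

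**Figure D2:**
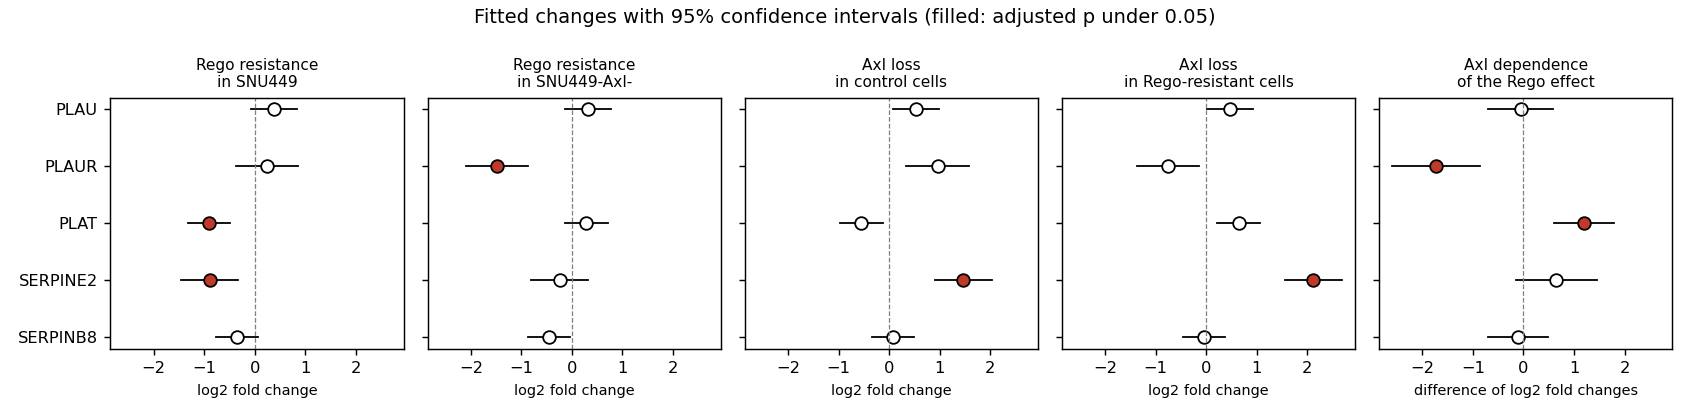
Log2 fold changes of the 5 genes in the 4 comparisons between groups and the difference of the Rego effects between the backgrounds (x axis), with 95% confidence intervals as bars and filled points where the adjusted p was under 0.05. SERPINE2 was called higher upon Axl loss in both states, and PLAUR and PLAT were called for a difference of the Rego effect, in opposite directions.

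Whether the Rego effect differed with Axl was tested as an interaction, the log2 fold change in SNU449-Axl- minus that in SNU449. PLAUR and PLAT passed, that is 2 of the 5 genes against 5.87% of all genes. For PLAUR, which did not differ detectably with resistance in SNU449 and fell in SNU449-Axl-, the difference was -1.72 (SE 0.414, adjusted p = 0.0176). For PLAT, which fell in SNU449 and had 0.29 in SNU449-Axl-, it was 1.19 (SE 0.284, adjusted p = 0.0169). Neither call held up against every omission of 1 library. PLAUR lost its call without control replicate 1 or resistant replicate 1 of SNU449, or without control replicate 3 or resistant replicate 2 of SNU449-Axl- (adjusted p between 0.0581 and 0.0782). PLAT lost it without control replicate 1 or resistant replicate 1 of SNU449, or without resistant replicate 1 or 2 of SNU449-Axl- (adjusted p between 0.0523 and 0.0640). PLAU (-0.06, SE 0.307) and SERPINB8 (-0.11, SE 0.279) gave no call.

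The levels of each gene across the groups can be put in order by the mean library value. PLAU ran from 410 ± 69 (SD, n = 3) in SNU449 control over 530.7 ± 64.1 in SNU449 Rego and 597.7 ± 147 in SNU449-Axl- control to 737.3 ± 112 in SNU449-Axl- Rego, and the libraries of neighbors in this order overlapped. PLAT began with 60.3 ± 12.6 in SNU449 Rego over 76.3 ± 4.62 in SNU449-Axl- control and 93.3 ± 5.69 in SNU449-Axl- Rego and ended with 112.7 ± 14.4 in SNU449 control, and of its neighbors SNU449 Rego and SNU449-Axl- control overlapped. PLAUR was lowest in SNU449-Axl- Rego, at 74.3 ± 16.6, and highest in SNU449-Axl- control, at 209 ± 39.6, with the overlapping groups SNU449 control and SNU449 Rego between them at 115.3 ± 62.1 and 126.7 ± 26.3. SERPINE2 had 995.7 ± 130 in SNU449 Rego, 1949 ± 837 in SNU449 control, 4466 ± 1370 in SNU449-Axl- Rego and 5099 ± 242 in SNU449-Axl- control, where only the first step, between the SNU449 groups, was free of overlap. SERPINB8 was low throughout, with group means of 29.3 to 40.3 on a scale whose smallest value is 12 and solved mean normalized counts of at most 14.5, so that no fold is given from its counts.

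The genes whose 4 group means were most like those of a member were found by the root mean square (RMS) difference of centred log2 means among 8185 genes with a mean normalized count of at least 50. MEX3D (RMS 0.0165), JAGN1 (0.0329) and PTDSS2 (0.0400) were nearest to PLAU, and ABCA1 (0.0191), DUSP1 (0.0316) and PDGFD (0.0528) to PLAT. Nearest to PLAUR were MPP1 (0.122), DNMT1 (0.144) and COLGALT1 (0.149), whose span across groups was narrower. SERPINE2 had no neighbor as close, with CYP24A1 (0.243), TNFAIP6 (0.285) and BIRC7 (0.286) at the top. DCAF13 (0.00826), UBR4 (0.0120) and ETF1 (0.0179) were nearest to SERPINB8, a gene of narrow range for which many genes are alike. With 4 group means the likeness describes closeness of levels and nothing more, and the order of the groups can differ. CYP24A1, for example, was highest in SNU449-Axl- Rego, whereas SERPINE2 was highest in SNU449-Axl- control.

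PLAUR lies on the long arm of chromosome 19 at chr19:43646095-43670547 (GRCh38, minus strand, 7 exons in the canonical transcript), 2.38 Mb from AXL on the same chromosome. The 20 nearest genes with a mean normalized count of at least 50, 10 on each side and within 1.36 Mb, were examined beside it. AXL is not among them. Upon Axl loss in Rego-resistant cells all 20 had a negative log2 fold change (-1.16 to -0.26, median -0.68, where the median of all genes was 0.0139), and 8 were called lower, against 1.93% of all genes. Upon Rego resistance in SNU449 their median was 0.54 with 7 called higher, against 4.31% of all genes. In SNU449-Axl- cells the median was -0.32 with 0 called by limma, against 4.35% of all genes, and 6 at an unadjusted p under 0.05. The share of all genes at that unadjusted cut-off is not given here. Upon Axl loss in control cells the median was 0.22 with 1 called higher and 1 lower, against 7.45% of all genes called in either direction. For the difference of the Rego effects the median was -1.0, and 8 were called lower, against 2.95% of all genes. PLAUR itself had -1.72 there, and the 20 genes ranged from -3.08 (PSG5) to 0.0583.

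Of the 5 genes nearest to PLAUR, ZNF428, IRGQ and XRCC1 were called upon Axl loss in Rego-resistant cells, with log2 fold changes of -0.90 (adjusted p = 0.0160), -0.81 (adjusted p = 0.0404) and -0.85 (adjusted p = 0.0171). XRCC1 encodes a scaffold of DNA single-strand break repair. ZNF576 (-0.33, adjusted p = 0.391) and SMG9 (-0.61, adjusted p = 0.0927), which lie nearer to PLAUR than XRCC1, were not called. Farther away, ETHE1, a mitochondrial sulfur dioxygenase, had -0.85 (adjusted p = 0.0318), and KCNN4, a calcium-activated potassium channel, had -0.90 (adjusted p = 0.0477). PLAUR had -0.77 in the same comparison, near the median of -0.68. In contrast, the fall of PLAUR by 1.49 upon Rego resistance in SNU449-Axl- cells was larger than that of each of the 20 genes, the lowest of which had -0.88, although differences between genes were not tested. PSG5, PSG4 and PSG1 among the 20 belong to a family of near-identical genes and are uncertain. The called counts of the neighbors were fragile, with 0 to 5 called lower upon Axl loss in Rego-resistant cells when single libraries were left out (0 without SNU449 Rego replicate 3) and 0 called after spike-in centring. Without single libraries, 3 to 8 were called higher upon Rego resistance in SNU449 and 4 to 7 lower for the difference of the Rego effects. The neighbors of the other 4 genes had medians between -0.257 and 0.350 in all comparisons. What the shared direction of the PLAUR region rests on was not tested.

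**Figure D3:**
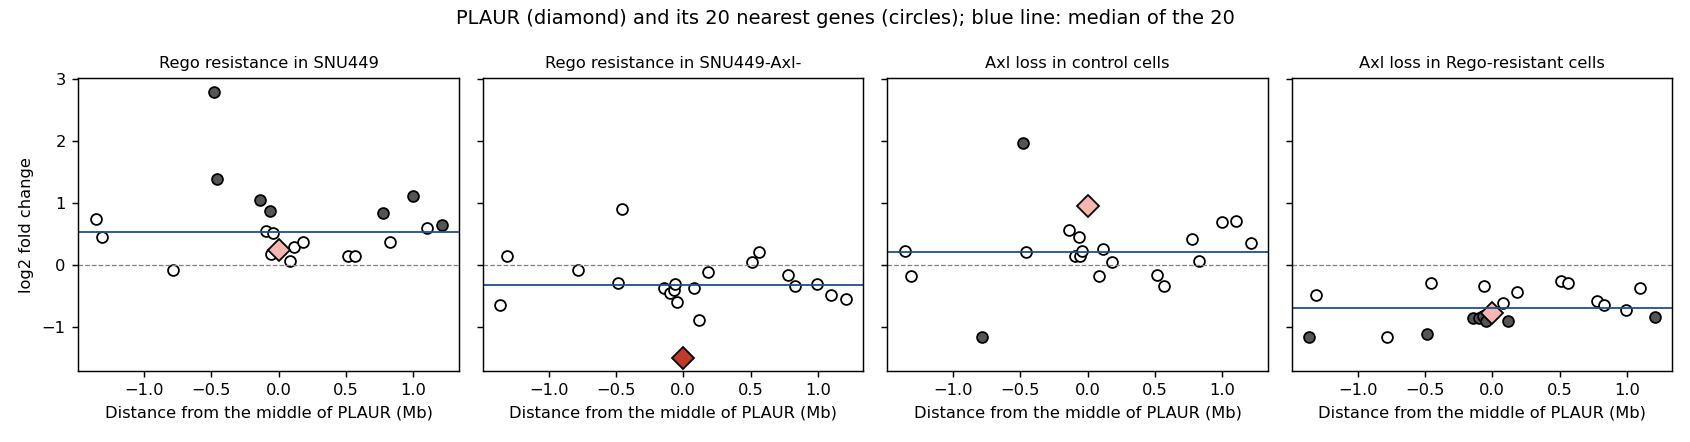
Log2 fold change (y axis) of PLAUR (diamond) and of its 20 nearest expressed genes (circles) by distance from the middle of PLAUR in Mb (x axis), for the 4 comparisons between groups. Filled circles and a dark diamond mark an adjusted p under 0.05 and the blue line the median of the 20, which is -0.68 upon Axl loss in Rego-resistant cells, where every circle lies below 0.

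PLAU lies at chr10:73909177-73917496 (GRCh38, plus strand, 11 exons in the canonical transcript), PLAT at chr8:42174718-42207709 (minus strand, 14 exons), SERPINE2 at chr2:223975045-224039318 (minus strand, 9 exons) and SERPINB8 at chr18:63970029-64019779 (plus strand, 7 exons). The tables and GENCODE gave the same coordinates for all of them. The libraries were made from the 3′ ends of transcripts, so the counts cannot show which promoter or isoform was used.

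Other genes of the plasminogen system were counted from a list of 30, of which 17 were tested. Plasminogen itself (PLG) was not listed, nor were VTN, encoding vitronectin, HGF or HPN. Upon Rego resistance in SNU449, 2 of the 17 were called (median log2 fold change -0.14), namely ITGB5 higher and ITGB3 lower, or 11.8% of the list against 7.81% of all genes. In SNU449-Axl- cells 5 were called (median 0.0677), with VLDLR, SERPINF2 and MRC2 higher and THBS1 and ITGB3 lower, against 4.35% of all genes. When single libraries were left out this count was 1 to 5, the lowest without SNU449-Axl- Rego replicate 2. Upon Axl loss, 3 were called in control cells (median -0.121), with ITGB5 and THBS1 higher and VLDLR lower, and 2 in Rego-resistant cells (median 0.0606), with VLDLR and S100A10 higher, against 7.45% and 4.37% of all genes. Without single libraries these counts were 2 to 4 and 0 to 1. The medians of all genes were between -0.000102 and 0.0139 in these comparisons.

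The beta-3 and beta-5 integrin subunits each pair with the alpha-v subunit into receptors for vitronectin, the matrix protein that uPAR also binds. ITGB3, encoding integrin beta-3, had values of 237, 256 and 149 in SNU449 control and 63, 65 and 63 in SNU449 Rego, and it fell by 1.70 on the log2 scale (adjusted p = 0.000131). It also fell in SNU449-Axl- cells, from 125, 145 and 188 to 72, 55 and 76 (log2 fold change -1.16, adjusted p = 0.00715). ITGB5, encoding integrin beta-5, had 160, 181 and 169 in SNU449 control against 380, 406 and 353 in SNU449 Rego, and rose by 1.15 (adjusted p = 0.00295). It was already at 446, 617 and 713 in SNU449-Axl- control (Axl loss in control cells, 1.77, adjusted p = 7.49e-05). In SNU449-Axl- Rego it had 510, 305 and 327, and the Rego effects of the backgrounds differed by -1.80 (adjusted p = 0.00207).

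VLDLR encodes an endocytic receptor that clears complexes of protease and serpin. It had values of 116, 118 and 128 in SNU449-Axl- Rego, above all other libraries, against 37, 32 and 30 in SNU449-Axl- control, 39, 44 and 74 in SNU449 Rego and 75, 78 and 45 in SNU449 control. It rose by 1.84 with resistance in SNU449-Axl- cells (adjusted p = 0.000258) and by 1.25 upon Axl loss in Rego-resistant cells (adjusted p = 0.00749), and was lower upon Axl loss in control cells (-0.94, adjusted p = 0.0270). The last call was lost after spike-in centring (-0.74, adjusted p = 0.0933) and without single libraries. The related clearance receptor LRP1 was called nowhere, with log2 fold changes of -0.49 in both Rego comparisons (adjusted p = 0.263 and 0.302).

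SERPINF2, encoding the plasmin inhibitor alpha-2-antiplasmin, rose from 27, 18 and 20 to 38, 52 and 46 with resistance in SNU449-Axl- cells (1.04, adjusted p = 0.0127), at scores close to the lowest that the table holds. In SNU449 it had 0.71 without a call (adjusted p = 0.0615), and the Rego effects differed by 0.33 (adjusted p = 0.645). The rise was thus not shown to be particular to SNU449-Axl- cells, and SERPINF2 was not listed in some of the pair tables. THBS1, encoding thrombospondin-1, had 1630, 1707 and 1158 in SNU449-Axl- control and 546 to 867 in all libraries of the other groups, and rose by 1.32 upon Axl loss in control cells (adjusted p = 0.000939). The plasminogen receptor genes ANXA2 and PLGRKT were called nowhere, and S100A10, the partner of ANXA2, rose by 0.68 upon Axl loss in Rego-resistant cells (adjusted p = 0.0469).

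Of 26 other serpin genes, SERPINA6, SERPINB1, SERPINB6 and SERPINF1 were tested and none was called by limma in any comparison. The smallest adjusted p among them was 0.0745, for SERPINF1 upon Rego resistance in SNU449 (log2 fold change 0.68). At an unadjusted p under 0.05, SERPINF1 counted upon Rego resistance in both backgrounds and SERPINA6 upon Rego resistance in SNU449-Axl- cells and upon Axl loss in Rego-resistant cells. These are 1, 2, 0 and 1 of the 4 genes in the Rego comparisons of SNU449 and SNU449-Axl- and the Axl comparisons of control and Rego-resistant cells, and 0 for the interaction. The share of all genes at this unadjusted cut-off is not given here, so the counts are not read as a result about these serpins.

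Genes of coagulation at the cell surface were taken from a list of 25, of which 16 were tested. In SNU449, 4 were called upon Rego resistance (median 0.112), or 2 to 4 without single libraries, against 7.81% of all genes. The genes of 3 protease-activated receptors were lower, with log2 fold changes of -1.44 for F2R (adjusted p = 0.000476), -1.31 for F2RL1 (adjusted p = 0.00744) and -1.66 for F2RL2 (adjusted p = 3.54e-05), and THBD, encoding thrombomodulin, was higher by 0.76 (adjusted p = 0.0396). In SNU449-Axl- cells 6 were called upon Rego resistance, all higher (median 0.403), against 4.35% of all genes. The count of 6 was not reached when any single library was left out, with 1 to 4 called and the lowest without SNU449-Axl- control replicate 2. The 6 genes are FGA, FGB and FGG, which encode the chains of fibrinogen, the precursor of the fibrin that plasmin cuts, and TFPI, ANXA5 and THBD. FGA (group means 24.7 to 40.3, adjusted p = 0.0487) and THBD (21.7 to 40, adjusted p = 0.0342) rose at scores close to the lowest of the scale. Upon Axl loss, F2R and F2RL2 were lower and FGG higher in control cells (3 called, median -0.0704), and FGA, FGB and FGG were higher in Rego-resistant cells (3 called, median 0.182), against 7.45% and 4.37% of all genes. Without single libraries these counts were 2 to 5 and 2 to 3.

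FGB had library values of 44, 16 and 24 in SNU449 control, 41, 22 and 24 in SNU449 Rego, 36, 63 and 72 in SNU449-Axl- control and 189, 547 and 294 in SNU449-Axl- Rego. It rose by 2.49 with resistance in SNU449-Axl- cells (adjusted p = 0.000805) and by 3.44 upon Axl loss in Rego-resistant cells (adjusted p = 2.90e-05), in which SNU449 Rego lay near the lower end of the scale. FGG had 91, 214 and 121 in SNU449-Axl- Rego, 42 to 61 in SNU449-Axl- control and 14 to 31 in SNU449 cells. FGB is also 1 of the 13 hepatocyte markers. F2RL2, encoding the protease-activated receptor PAR3, had 83, 74 and 54 in SNU449 control and 19 to 35 in all other libraries. SNU449 Rego and SNU449-Axl- control held the same scores of 19, 20 and 25, near the lower end of the scale, and the gene was not listed in some of the pair tables, which limits how exactly its fold changes can be read. The interaction was called for F2RL2 (2.26), FGB (2.38) and ANXA5 (0.999), 3 of the 16, against 5.87% of all genes. Without single libraries 1 to 4 were called, the lowest without SNU449-Axl- Rego replicate 2.

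**Figure D4:**
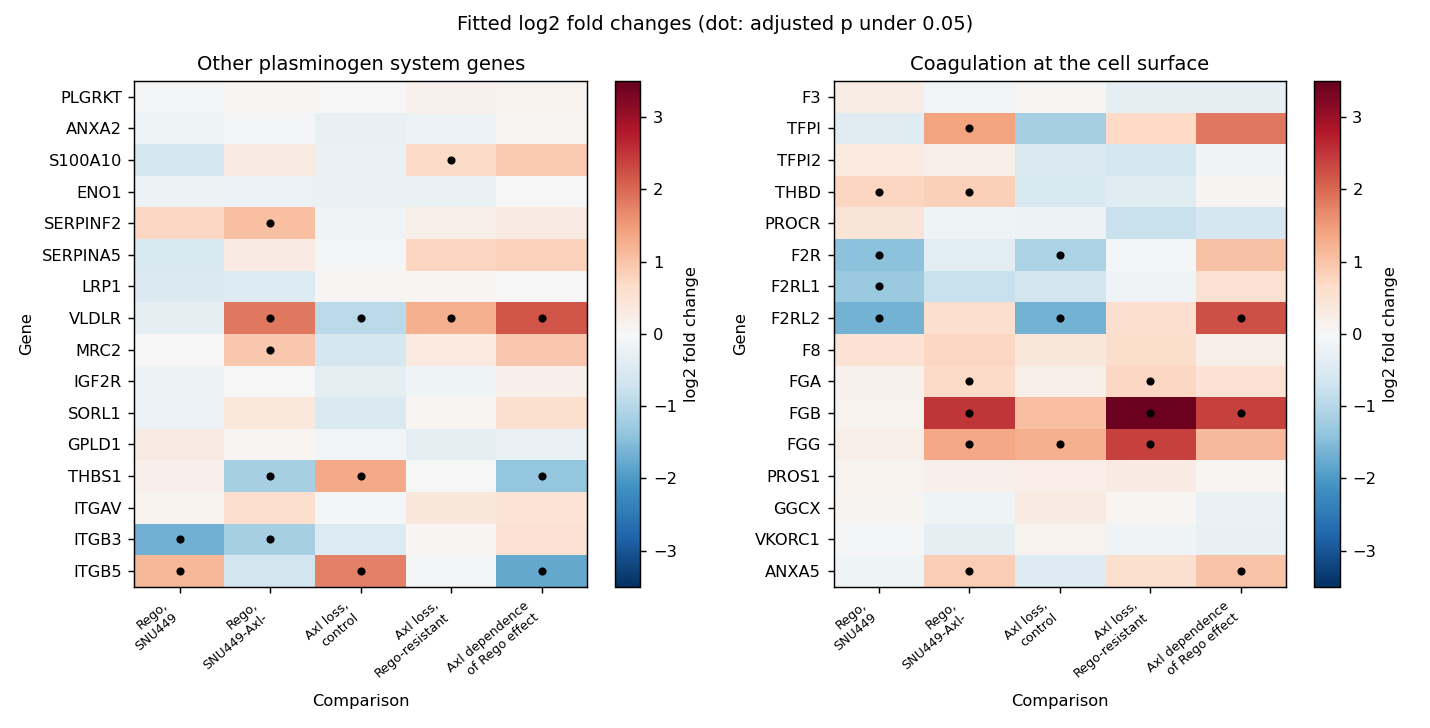
Log2 fold changes (color) of 16 of the 17 tested genes of the plasminogen system and the 16 tested genes of coagulation at the cell surface (rows) in the 4 comparisons and for the difference of the Rego effects (columns). Dots mark an adjusted p under 0.05, and in the SNU449-Axl- Rego comparison 5 and 6 genes carry one.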

How the data were processed

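RNA of 12 QuantSeq libraries was sequenced from the 3′ ends of transcripts. Reads were trimmed by the authors with cutadapt 4.0 and aligned with STAR 2.5.3a to GRCh38 plus spike-in RNAs. After counting per gene and a filter on low counts, the authors ran DESeq2, and the design held the date of preparation. The deposited library values are whole-number scores, that is antilogs of variance-stabilized counts after removal of the preparation effect with limma, made separately for each of the 8 tables. The authors' mean normalized count is the signal of a gene over the libraries of a table. These signals summed to 4.16e+06 to 4.92e+06 per table. No read count of a single library was used, so the depth is unknown and no interval that needs it is given. The authors' fold changes and p-values were not used.

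With R 4.3.3 and limma 3.58.1 (lmFit, eBayes with trend), log2(value + 1) of 15601 genes was fitted over the 4 groups in the 12-library table of the Axl backgrounds (a minimum mean value of 5 removed no gene), with the replicate number as a block and without the 32 spike-in RNAs. The block was used because the values carried almost no deviation common to a replicate number (median 0.00124 to 0.00127, against 0.122 for single libraries, log2), the form that removal of an effect along the number leaves. Which library was prepared when is not given in the sources used here. Same-numbered libraries of different groups deviated in opposite ways (r = -0.485 to -0.0906), as such a removal leaves them, so whether the numbers pair libraries could not be seen. Fits were tested on simulated data. Group means of normalized counts were solved by least squares from the pair tables (median error 0.373% over 12901 genes). The error can be large for a single gene, since the solution gave an impossible -7.16 for FGB in SNU449 Rego. Counts of FGB are therefore not given. For SERPINE2 in SNU449 Rego the solved count moved from 608.4 to 598.2 when the mean over all 12 libraries was added. Genes named were the 7 members, AXL, up to 4 called genes per list and comparison with the largest absolute change, and the 3 genes of most like pattern. THBD, FGA, MRC2, LRP1, ANXA2, PLGRKT, the other serpins and the neighbors of PLAUR were named after their values were seen. So were FN1, SNAI2 and KRT8 among the cell type markers. A gene of these lists that counts towards their totals is not reported here by name. The members and all lists were chosen with earlier results of these data known. Alternatives were no block, the other table over all libraries, the table of each pair, pseudocounts of 0 and 10, upper-quartile rescaling, spike-in centring, a mean normalized count of at least 50 and omission of single libraries. The omissions used scores corrected over all 12 libraries, and the correction was not repeated without the omitted library.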

Additional observations from a re-analysis of the deposited data

Results flagged for a closer look

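The Rego effect differed between SNU449-Axl- and SNU449 cells by the interaction test for PLAUR, with a difference of log2 fold changes of -1.72, and for PLAT, with 1.19. The 20 genes nearest to PLAUR leaned the same way, with a median of -1.0 and 8 called lower, so the direction was not particular to PLAUR. Among the other genes of the plasminogen system the Rego effect differed for VLDLR (2.19), ITGB5 (-1.80) and THBS1 (-1.35). Among the coagulation genes it differed for FGB (2.38), F2RL2 (2.26) and ANXA5 (0.999). FGB lost this call without resistant replicate 2 of SNU449-Axl- (1.84, adjusted p = 0.0537), the library with the highest FGB value of 547. THBS1 and ANXA5 lost it without single libraries, with values of -1.61 to -1.16 and 0.91 to 1.06 over all omissions, whereas VLDLR, ITGB5 and F2RL2 kept it throughout. For F2RL2, SNU449 Rego and SNU449-Axl- control both held scores of 19, 20 and 25, near the lower end of the scale. Its difference can therefore not be read exactly.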

How the results depend on the processing

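Without the replicate block the numbers of genes called were 2175 and 1552 in the Rego comparisons of SNU449 and SNU449-Axl-, 2182 and 1503 in the Axl comparisons of control and Rego-resistant cells, and 1826 for the interaction, against 1219, 678, 1163, 682 and 916 with it, and 3 and 2 of the 5 members were called upon Axl loss in control and Rego-resistant cells. The block changed no other call of a member. A fit without it ignores the effect already removed along the replicate number, so its p-values are too small and its added calls carry little weight. In the tables of a pair, 603 genes and 0 members were called upon Rego resistance in SNU449, 603 genes upon Axl loss in control cells, and 1160 genes and 2 members upon Axl loss in Rego-resistant cells, where PLAUR passed (-0.53, adjusted p = 0.0294). At 0 members called, PLAT and SERPINE2 had adjusted p = 0.0571 and 0.096. Upon Rego resistance in SNU449, 1 member was called with a pseudocount of 10, with upper-quartile rescaling, with spike-in centring and with a mean normalized count of at least 50, since SERPINE2 lost its call (adjusted p = 0.0506 to 0.0624). That count minimum left 746 genes called in this comparison and 450 upon Axl loss in Rego-resistant cells. Spike-in centring called 2 members upon Axl loss in control cells (PLAUR, 1.16) and 1799 genes and 3 members in Rego-resistant cells (PLAU, 0.76, and PLAT, 0.93). It turned SERPINB8 upon Axl loss in Rego-resistant cells to 0.26 and the PLAU interaction to 0.0323. The other table over all libraries and a pseudocount of 0 changed no call of a member. The cause of these differences was not tested.

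With single libraries left out, 740 to 968 and 205 to 519 genes were called in the Rego comparisons of SNU449 and SNU449-Axl-, 540 to 1033 and 219 to 394 in the Axl comparisons of control and Rego-resistant cells, and 523 to 922 for the interaction. Members called were 0 to 1, 0 to 1, 1 to 2, 1 to 1 and 0 to 2 in the same order. None of the values that changed sign was called. They ranged from -0.0402 to 0.78 for PLAUR upon Rego resistance in SNU449, from -0.46 to 0.14 for SERPINE2 upon Rego resistance in SNU449-Axl-, from -0.2999 to 0.18 for the PLAU interaction and, for SERPINB8, from -0.065 to 0.27 and -0.16 to 0.14 upon Axl loss in control and Rego-resistant cells and from -0.31 to 0.0656 for the interaction.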
